A study of Mus musculus with 2 samples.

Results

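The CD209 lectin family was described here through 6 genes of mouse chromosome 8, *Cd209a*, *Cd209c*, *Cd209d*, *Cd209e*, *Cd209f* and *Cd209g*, out of 32287 features measured by droplet-based scRNA-Seq in injured muscle. The members were taken by their symbols, and their UMIs, the molecule tags that mark single captured transcripts, were summed over cell classes gated on other genes. The family was chosen by its measured UMI levels, since its paralogs divided between resident macrophages and dendritic cells in these same counts. The levels by cell class are therefore a description with no test. A seventh family gene, *Cd209b*, was not among the members and is given only for comparison.

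The 2 libraries came from pooled male C57BL/6J mice aged 10 to 16 weeks whose peroneal nerves were crushed on both sides, and cells were taken 7 days after injury. One library was from mice given a control goat anti-mouse IgG and the other from mice given SPP1-nAb, an antibody that neutralizes osteopontin, the secreted protein encoded by *Spp1*. Both groups received 2 μg in 10 μL into the TA muscle at injury and every 2 days afterward. Every mouse had the nerve crush, with no uninjured group in the comparison. The labels name TA and GTN muscle, while the paper describes this experiment on TA muscle only, so the muscle behind the libraries is not settled. The labels also call both libraries S100GFP-pos, while the sorting protocol describes live GFP+ and GFP- cells, so the sort is not settled either. The strain is the labels' name, while the study's methods name S100GFP-tg mice, which carry a GFP reporter, for the antibody work, and the number of mice in each pool was not stated. With 1 library per treatment no difference between treatments could be tested, and treatment, mouse pool and library cannot be told apart. All intervals below are 95% intervals that cover counting error only, and they treat UMIs as independent even where a few cells hold many of them.

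The libraries held 23779 barcodes and 97607674 UMIs (IgG) and 25069 barcodes and 127719916 UMIs (SPP1-nAb). After filters, 21046 and 22282 cells with a median of 3607 and 4534 UMIs were kept. Cells were gated by at least 2 detected markers and a marker score, with no CD209 gene among the markers. The gate gave 2162 and 1474 resident macrophage-like cells and 612 and 593 cells like conventional dendritic cells type 2 (cDC2-like). *Lyve1*, *Fcna*, *Cd163* and *Folr2* were the leading genes of the resident gate, and *Klrd1* and *Flt3* stood among the leading genes of the cDC2-like gate. These 6 genes are markers used by the gates, so their lead follows from the gating. Past the markers, *Fxyd2*, *Ltc4s* and *Ednrb* led in the resident gate and *Cd7*, *Klrb1b* and *P2ry10* in the cDC2-like gate. A gate on plasmacytoid dendritic cell markers was left unnamed because 124 of its 167 IgG and 118 of its 176 SPP1-nAb cells carried exactly 2 of the markers. A class called MHC class II-high was also left unnamed. Its cells passed no class score and had fewer than 3 general macrophage markers. They held at least 5 of 6 markers, the MHC class II genes *H2-Ab1*, *H2-Aa*, *H2-Eb1* and *Cd74* with *Tnip3* and *Clec4b1*. *Tnip3* was detected in 89.9% of them. *Wnt11*, *Gm15987* and *Napsa* were among the leading genes of both this class and the cDC2-like gate. The libraries shared 163 barcodes, carried by 145 and 142 kept cells.

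CD209 proteins, of which human DC-SIGN is the best known, are C-type lectins, receptors that bind sugars such as mannose and fucose on microbes and on the body's own glycoproteins in a calcium-dependent way. They are mostly carried on dendritic cells and macrophages, where they take up ligands and send signals. The mouse has a tandem expansion of the locus, with *Cd209a* named as mouse DC-SIGN and the others known as SIGN-related genes. No human sequence was compared here. Resident macrophages of connective tissue typically carry *Lyve1*, a hyaluronan receptor, while cDC2 present antigen on MHC class II to CD4 T cells.

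In GRCm39 the 7 family genes lie along chromosome 8 in the order *Cd209a*, *Cd209e*, *Cd209d*, *Cd209b*, *Cd209c*, *Cd209f* and *Cd209g*, all protein coding and with none overlapping another gene. *Cd209a* (ENSMUSG00000031494, chr8:3793397-3798984, minus strand, 7 exons) opens the cluster, followed by *Cd209e* (ENSMUSG00000040197, chr8:3897965-3904309, minus strand, 6 exons) and *Cd209d* (ENSMUSG00000031495, chr8:3921824-3928568, minus strand, 7 exons). *Cd209c* (ENSMUSG00000040165, chr8:3990222-4004746, minus strand, 5 exons) follows *Cd209b*. *Cd209f* (ENSMUSG00000051906, chr8:4151166-4155847, minus strand, 8 exons) and *Cd209g* (ENSMUSG00000079168, chr8:4184098-4187714, plus strand, 8 exons) lie apart from the rest, 358 and 391 kb from the start of *Cd209a*. These 2 outlying genes are transcribed in opposite directions. They were highest in resident macrophage-like cells, as was *Cd209b* in the middle of the cluster, at 19.4 CPM over both libraries.

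The coding sequences of *Cd209f* and *Cd209g* were 89.2% identical, and no other pair of the 7 genes reached more than 76.9%, the value of *Cd209b* with *Cd209d*. The lowest identity, 61.6%, was that of *Cd209e* with *Cd209g*. To show where the 6 members part, 30 coding bases are given for each, read from GRCm39 5′ to 3′ on the gene's own strand. The stretch was picked because it has the most bases shared by all 6 members, the 21 in capitals. It is therefore not typical of the whole coding sequence. The stretch lies within 1 exon of each gene, exon 5 of 7 in *Cd209a* (chr8:3796969-3796998), exon 3 of 5 in *Cd209c* (chr8:3994975-3995004), exon 5 of 7 in *Cd209d* (chr8:3926342-3926371), exon 4 of 6 in *Cd209e* (chr8:3902830-3902859) and exon 6 of 8 in both *Cd209f* (chr8:4154190-4154219) and *Cd209g* (chr8:4186262-4186291).
Cd209a: gcaCTTCcAaGGAAgCTGtTACtTcTTCTC
Cd209c: agtCTTCcAaGGAAaCTGtTACtTcTTCTC
Cd209d: attCTTCaAtGGAAgCTGtTACtTcTTCTC
Cd209e: gttCTTCaAtGGAAaCTGtTACtTtTTCTC
Cd209f: gctCTTCcAgGGAAgCTGcTACcTcTTCTC
Cd209g: gctCTTCcAgGGAAgCTGcTACcTcTTCTC
Over these 30 bases the *Cd209f* and *Cd209g* lines are the same. *Cd209c*, *Cd209f* and *Cd209g* each keep 26 of the bases of *Cd209a*, while *Cd209d* keeps 25 and *Cd209e* 24. In this stretch the pair is thus no further from *Cd209a* than the other members are. Over the whole coding sequence the pair was furthest from *Cd209a* among the members, at 65.3% (*Cd209f*) and 65.6% (*Cd209g*) identity. *Cd209d* was at 67.9%, *Cd209e* at 71.4% and *Cd209c* at 74.2%.

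The sequence ahead of the genes again paired *Cd209f* with *Cd209g*. Over the 250 bases before each RefSeq start (promoter table of build GRCm38.p6, each matched exactly to GRCm39 except *Cd209c*, whose 250 bases occur at 2 places on the chromosome), *Cd209f* and *Cd209g* were 83.6% identical and the other pairs were 45.6% to 60.0% identical. These shares count identical bases over all 250, while the coding shares above count them over aligned bases only, so the 2 are not compared. *Cd209f* and *Cd209g* shared an unbroken run of 154 bases, from position −154 to −1 of *Cd209f* and from −168 to −15 of *Cd209g*. A stretch ahead of the canonical transcript start is shown for each because these are the 2 members whose UMIs lay together, with the 126 identical bases in capitals. They are chr8:4155848-4156014 on the minus strand for *Cd209f* and chr8:4184486-4184638 on the plus strand for *Cd209g*. The first abuts the canonical start of *Cd209f*, and the second ends short of that of *Cd209g* at position 4184652, inside an exon of another, intron-retaining transcript of *Cd209g*.
Cd209f: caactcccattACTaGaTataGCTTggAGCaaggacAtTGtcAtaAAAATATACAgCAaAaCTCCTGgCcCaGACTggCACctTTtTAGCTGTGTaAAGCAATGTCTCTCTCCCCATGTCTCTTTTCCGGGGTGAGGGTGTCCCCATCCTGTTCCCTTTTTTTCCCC
Cd209g: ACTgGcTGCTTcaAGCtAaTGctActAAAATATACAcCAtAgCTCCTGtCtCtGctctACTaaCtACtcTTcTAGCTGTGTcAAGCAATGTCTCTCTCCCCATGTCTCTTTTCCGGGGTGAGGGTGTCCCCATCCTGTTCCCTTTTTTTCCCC
The last 71 bases of the 2 stretches are an unbroken match.

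The 250 bases before each RefSeq start were searched on both strands for 6 short motifs. TATAAA, the TATA box motif, was found at position −29 of *Cd209f* and −43 of *Cd209g*, and on the other strand of *Cd209a*. It is held by 12.4% of 32851 promoters. TGAGTCA, the binding motif of AP-1 factors, was found at position −83 of *Cd209f* and −97 of *Cd209g* only, against 4.46% of all promoters. These positions lie within the run shared by the pair, past the printed bases. They count from the RefSeq starts, while the canonical transcripts start at 4155847 (*Cd209f*) and 4184652 (*Cd209g*). Both TATAAA matches thus lie inside the canonical transcripts. The TGAGTCA match begins at the canonical start of *Cd209f* and lies ahead of that of *Cd209g*. TGCTGA and GGAAGT were found in *Cd209a* and *Cd209d* (16.1% and 19.7% of promoters), GAGGAA in *Cd209d* (23.3%) and GAAACT in none (13.5%). A match is a description of letters and not of binding.

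The likeness of *Cd209f* and *Cd209g* bears on how reads are assigned. Of 44 windows of 100 bases along each transcript of the pair, 13 (29.5%) also occurred in transcripts of the other gene, but of the 17 windows within the last 500 bases, where 3′ libraries place most reads, 0 did. For *Cd209c*, 25 of 59 windows occurred elsewhere on chromosome 8, again 0 of 17 near the 3′ end. *Cd209a*, *Cd209d* and *Cd209e* had no repeated window. Only exact matches of the canonical transcripts were looked up, and how reads were assigned was not tested.

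*Cd209a*, *Cd209e* and the sparse *Cd209c* were highest in cDC2-like cells and *Cd209f* and *Cd209g* in resident macrophage-like cells. *Cd209d* was the member nearest to even between these classes. Levels are given as CPM, a gene's UMIs divided by the UMI total of its class and scaled to the usual CPM unit, and are compared between classes and not between genes. *Cd209a* was at 945 CPM (910 to 981, 2740 UMIs) in IgG and 757 (727 to 787, 2417 UMIs) in SPP1-nAb cDC2-like cells, which held 53.7% and 53.2% of all its UMIs. It was at 53.2 and 18.0 CPM in resident macrophage-like cells. The level in cDC2-like cells was thus 17.8-fold (16.0 to 19.7) and 42.0-fold (35.0 to 50.6) that in resident macrophage-like cells. The unnamed MHC class II-high cells came next with 451 and 400 CPM, and then the unnamed plasmacytoid marker gate with 190 and 119 CPM. Mature regulatory dendritic cell-like (mregDC-like) cells, at 76.6 and 80.2 CPM, and *Ear2* macrophage-like cells, at 71.7 and 56.8 CPM, lay close together, and their order over both libraries is not separated from the spread between the libraries. Conventional dendritic cell type 1-like (cDC1-like) cells, the other main dendritic class, were at only 16.6 and 27.2 CPM.

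*Cd209e* was at 61.4 CPM (52.7 to 71.1, 178 UMIs) in IgG and 139 (126 to 152, 443 UMIs) in SPP1-nAb cDC2-like cells, 58.6% and 67.8% of its UMIs. The unnamed plasmacytoid marker gate came next, with 37.0 and 61.0 CPM of *Cd209e*. Resident macrophage-like cells held it at 7.97 and 3.46 CPM and *Ear2* macrophage-like cells at 3.38 and 7.60 CPM. The order of these 2 classes thus differed between the libraries. *Cd209c* was sparse, with 78 UMIs (26.9 CPM, 21.3 to 33.6) and 52 UMIs (16.3 CPM, 12.2 to 21.3) in cDC2-like cells, 51.0% and 52.0% of its UMIs. Resident macrophage-like cells had 27 and 8 UMIs (3.31 and 1.15 CPM), and unnamed MHC class II-high cells lay between, at 15.3 and 8.03 CPM. Both genes were thus on the dendritic side in both libraries, 7.71-fold and 40.0-fold for *Cd209e* and 8.13-fold and 14.1-fold for *Cd209c* over resident macrophage-like cells.

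**Figure D1:**
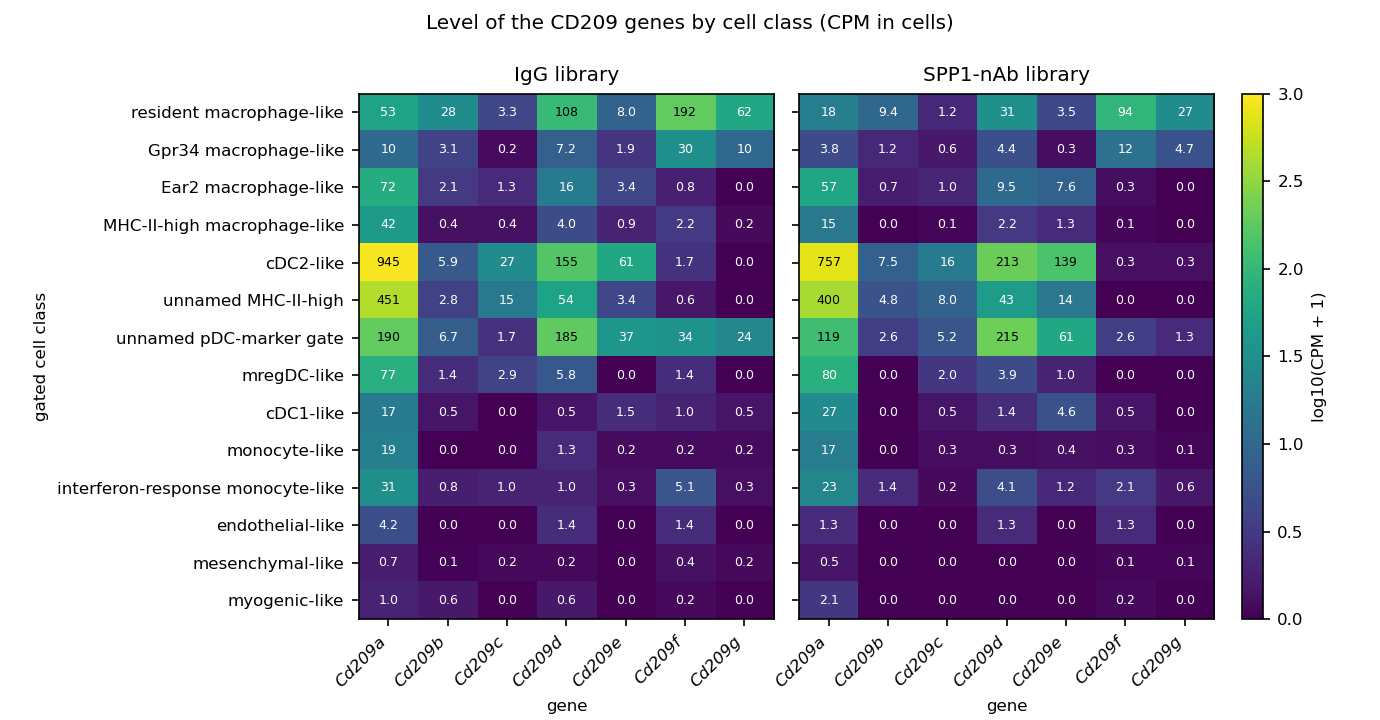
Heat map of the CPM of each CD209 gene (columns) in gated cell classes (rows) in the IgG and SPP1-nAb libraries, with color as log10(CPM + 1) and the CPM printed in each cell. *Cd209a* is brightest in cDC2-like cells (945 and 757 CPM), *Cd209f* in resident macrophage-like cells (192 and 93.8 CPM), and *Cd209d* is bright in both, while the endothelial-like, mesenchymal-like and myogenic-like rows stay near 0.

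*Cd209f* was at 192 CPM (182 to 201, 1564 UMIs) in IgG and 93.8 (86.7 to 101, 650 UMIs) in SPP1-nAb resident macrophage-like cells, which held 86.9% and 88.2% of its UMIs. *Cd209g* was at 62.3 CPM (57.0 to 67.9, 508 UMIs) and 26.8 (23.1 to 31.0, 186 UMIs), 87.7% and 86.1% of its UMIs. For both genes the next named class was *Gpr34* macrophage-like cells, with 30.0 and 12.2 CPM of *Cd209f* and 9.61 and 4.66 CPM of *Cd209g*. In cDC2-like cells *Cd209f* had 5 and 1 UMIs, so its level in resident macrophage-like cells was 111-fold (47.5 to 343) higher in IgG and 300-fold (53.6 to 11851) in SPP1-nAb, a wide interval set by the single UMI. *Cd209g* had 0 UMIs in IgG cDC2-like cells, which allows up to 1.04 CPM, and 1 UMI in SPP1-nAb cDC2-like cells.

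*Cd209a* was held by both classes, at 53.2 and 18.0 CPM in resident macrophage-like cells, the latter beside 10.1 CPM in SPP1-nAb tenocyte-like cells. The member with the closest levels in cDC2-like and resident macrophage-like cells was *Cd209d* (SIGNR3). In cDC2-like cells it was at 155 CPM (141 to 170, 449 UMIs) in IgG and 213 (197 to 229, 679 UMIs) in SPP1-nAb. In resident macrophage-like cells it was at 108 CPM (101 to 116, 884 UMIs) and 31.2 (27.1 to 35.6, 216 UMIs). The unnamed plasmacytoid marker gate was above both classes, at 185 and 215 CPM, though close to cDC2-like cells in SPP1-nAb. The ratio of the cDC2-like to the resident level was 1.43 (1.27 to 1.60) in IgG and 6.82 (5.84 to 7.99) in SPP1-nAb. Because the resident cells were more numerous, they held 52.6% of its UMIs in IgG and 16.4% in SPP1-nAb, while cDC2-like cells held 26.7% and 51.6%. *Cd209b*, which lies between *Cd209d* and *Cd209c*, was also found in both classes. It was at 27.8 and 9.38 CPM in resident macrophage-like and 5.87 and 7.51 CPM in cDC2-like cells.

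**Figure D2:**
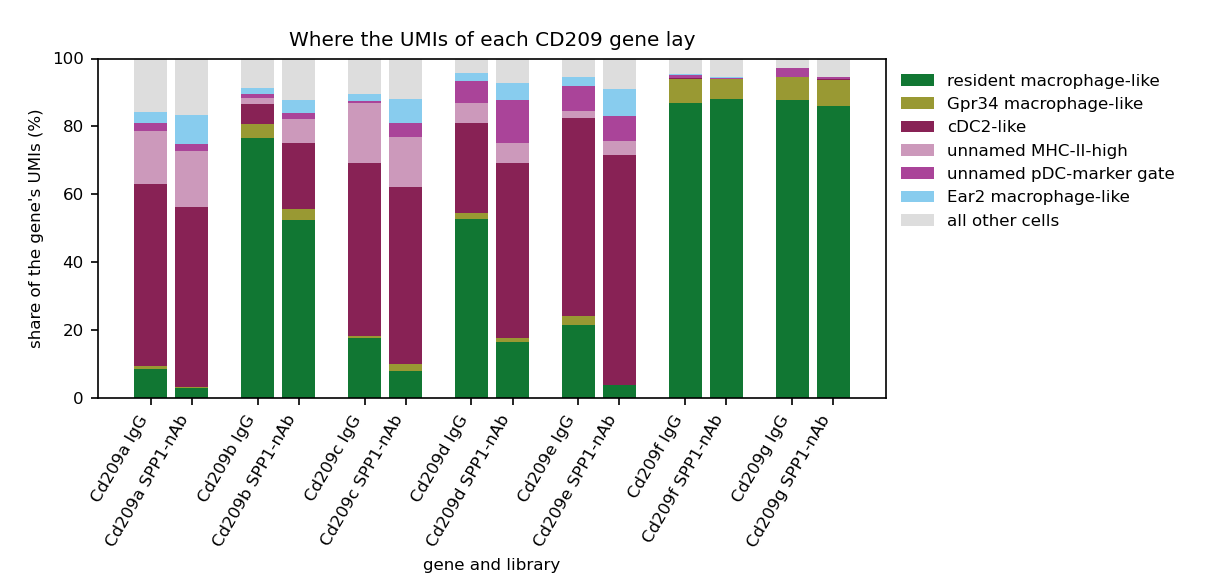
Stacked bars of the share (%) of each CD209 gene's UMIs in 6 cell classes and in all other cells, 1 bar per gene and library. Resident macrophage-like cells hold 86.1% to 88.2% of *Cd209f* and *Cd209g* in both libraries, whereas their share of *Cd209d* is 52.6% in IgG and 16.4% in SPP1-nAb.

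The gates used these marker lists, so higher sums in a class's own list follow from the gate. The 11 cDC2 markers summed to 42.2 and 35.6 CPM in resident macrophage-like cells against 1649 and 1631 CPM in cDC2-like cells, and *Flt3*, the growth factor receptor of dendritic cells, had 5 and 4 UMIs in all resident cells. The 9 resident macrophage markers summed to 514 and 558 CPM in cDC2-like cells, mostly *Mrc1*, the mannose receptor, at 426 and 489 CPM, against 7921 and 6966 CPM in resident cells. *Lyve1* was detected in 4 of 612 and 2 of 593 cDC2-like cells. The limits of the gates were not sharp, since 464 and 545 resident cells lay within 1 score unit above the limit and 1164 and 1450 cells within 1 unit below it, and 153 and 148 cDC2-like cells carried exactly 2 markers.

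The share of cells with at least 1 UMI followed the levels, given here with every cell thinned to 2000 UMIs and the unthinned value in parentheses. In cDC2-like cells *Cd209a* was detected in 61.6% (69.9%) of IgG and 55.4% (65.3%) of SPP1-nAb cells. *Cd209d* was detected in 18.2% (24.5%) and 18.1% (26.1%), *Cd209e* in 6.54% (8.66%) and 10.4% (14.5%), and *Cd209c* in 3.96% (10.6%) and 2.15% (8.09%). Most cDC2-like cells thus held *Cd209a* and a minority the other 3. In resident macrophage-like cells *Cd209f* was detected in 15.6% (19.2%) and 8.44% (10.9%), *Cd209d* in 13.1% (17.2%) and 4.47% (6.78%), and *Cd209g* in 8.36% (11.9%) and 3.46% (6.11%). Before thinning, *Cd209a* was detected in 240 of 2162 IgG and 68 of 1474 SPP1-nAb cells of this class. Thinning left out 31 and 35 cDC2-like and 165 and 88 resident cells, whose classes had medians of 4531 and 5134 and of 3709 and 4485 UMIs.

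Endothelial-like, mesenchymal-like and myogenic-like cells, which should lack the genes, were taken as the background. Their median depth was 3367 UMIs in IgG and 4192 in SPP1-nAb, and no member was detected in more than 0.336% of their 4767 and 2521 cells before thinning. Their levels were 0.898 and 1.11 CPM for *Cd209a*, 0.317 and 0.0743 for *Cd209d*, 0.370 and 0.223 for *Cd209f* and 0.106 and 0.0743 for *Cd209g*. *Cd209e* had 0 UMIs there, which allows a share of cells with a UMI of up to 0.0629% and 0.119%, a limit that does not bear on cells expressing the gene without a UMI. The few *Cd209f* UMIs of cDC2-like cells, 1.73 and 0.313 CPM, were near this background. Other nonmyeloid classes were higher in SPP1-nAb, where tenocyte-like cells had 10.1 CPM of *Cd209a* on 17 UMIs and 4.75 CPM of both *Cd209d* and *Cd209e* on 8 UMIs each, and Schwann-like cells 5.65 CPM of *Cd209a* and 3.39 CPM of *Cd209e*. In IgG these classes were at 1.45 and 2.86 CPM of *Cd209a* and had 0 UMIs of *Cd209e*. The 3.46 CPM of *Cd209e* in SPP1-nAb resident macrophage-like cells was thus under the level of tenocyte-like and near that of Schwann-like cells. The 18.0 CPM of *Cd209a* in these resident cells was above the 10.1 and 5.65 CPM of tenocyte-like and Schwann-like cells.

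A few cells held much of the *Cd209e* signal. The 10 cells with the most *Cd209e* UMIs held 53.4% of those in IgG cDC2-like cells and 49.4% in SPP1-nAb, up to 29 and 45 UMIs in a single cell. For *Cd209a* the top 10 cells held 8.65% and 8.56%, and for *Cd209d* 23.8% and 28.1%. In resident macrophage-like cells the top 10 held 11.7% of *Cd209f* in IgG and 29.7% in SPP1-nAb, and 16.1% and 31.7% of *Cd209g*. Among cells with the gene, the mean was 6.40 and 6.25 UMIs of *Cd209a*, 3.77 and 4.04 of *Cd209f* and 3.36 and 5.15 of *Cd209e*.

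The levels also differed between cells of the same class. Resident macrophage-like cells with a *Lyve1* UMI had 247 CPM of *Cd209f* in IgG and 175 in SPP1-nAb, against 104 and 39.6 CPM in those without. *Cd209g* was at 78.9 and 51.3 CPM with and 36.2 and 10.6 without *Lyve1*, and *Cd209d* at 140 and 55.7 with and 58.9 and 14.9 without. Cells with *Timd4*, a phosphatidylserine receptor of long-lived resident macrophages, had 292 and 357 CPM of *Cd209f* against 180 and 81.3 CPM in the rest. All 3 genes were thus higher in *Lyve1*-bearing cells in both libraries, and *Cd209a* was too, at 60.2 and 28.2 CPM with and 42.2 and 11.3 without.

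Cells of the resident gate with a UMI of *Ccr2*, the chemokine receptor of monocytes and monocyte-derived cells, showed the reverse. *Cd209f* was at 73.8 CPM in IgG and 30.3 in SPP1-nAb cells with *Ccr2*, against 263 and 140 CPM in those without. *Cd209g* was at 20.8 and 8.85 CPM with and 87.4 and 40.1 without *Ccr2*, and *Cd209d* at 45.5 and 10.2 with and 146 and 46.6 without. *Cd209a* was lower with *Ccr2* too, at 32.5 and 9.19 CPM against 65.8 and 24.5 without. For MHC class II the libraries did not match. *Cd209f* was at 219 CPM in cells above and 166 in cells below the class median of MHC class II in IgG, but at 77.4 and 106 CPM in SPP1-nAb, and *Cd209d* was at 137 and 80.9 against 24.0 and 36.5 CPM.

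**Figure D3:**
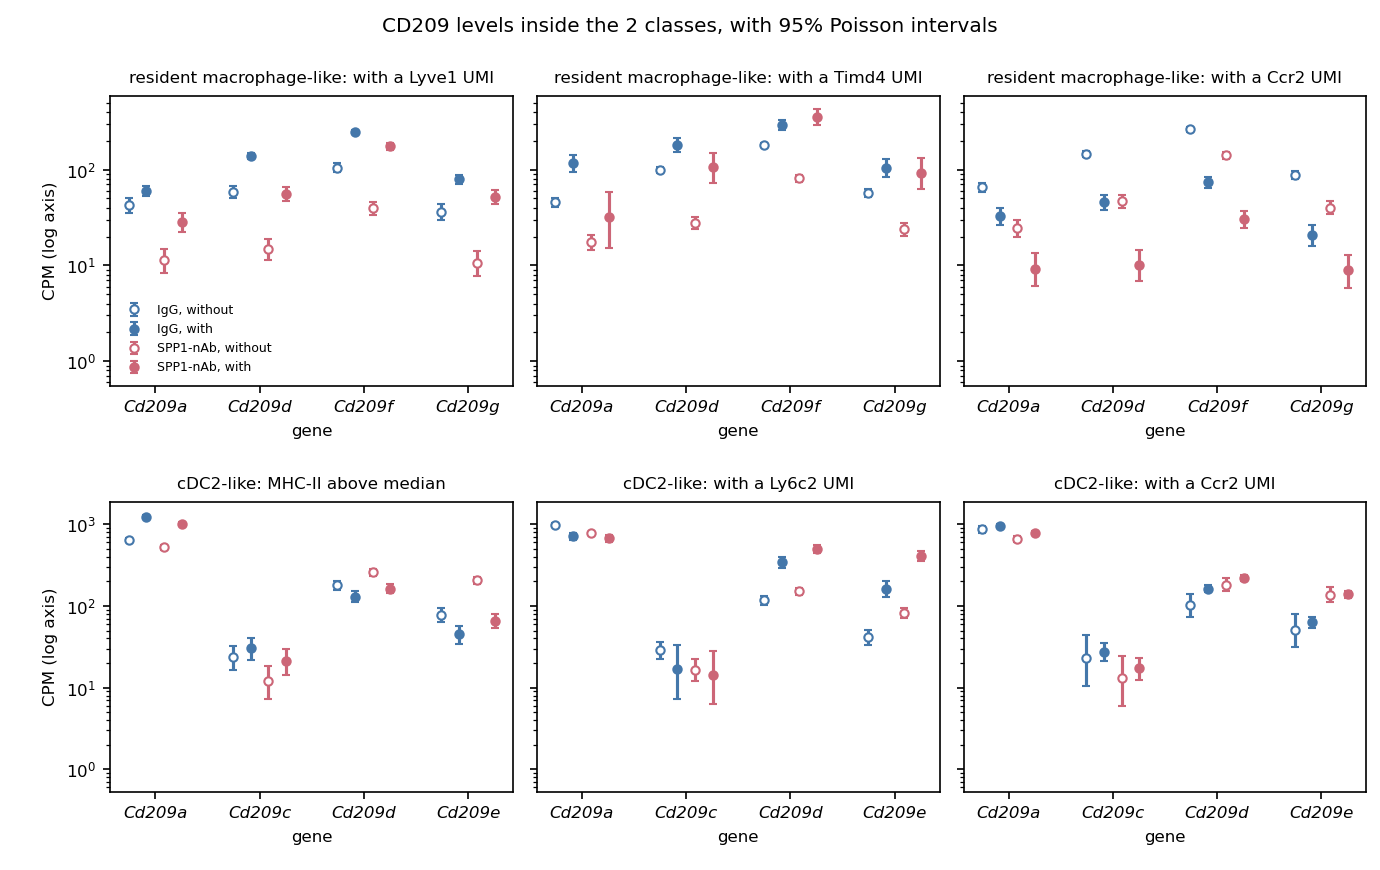
CPM on a log axis of CD209 genes in resident macrophage-like cells (top row) and cDC2-like cells (bottom row) with (filled) and without (open) a UMI of the named gene, or above and below the class median of MHC class II, in IgG (blue) and SPP1-nAb (red), with bars for 95% Poisson intervals. *Cd209f*, *Cd209g* and *Cd209d* are higher with *Lyve1* and lower with *Ccr2*, and in cDC2-like cells *Cd209a* and *Cd209e* differ in opposite directions by MHC class II and by *Ly6c2*.

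In cDC2-like cells *Cd209a* differed by MHC class II in the opposite direction to *Cd209d* and *Cd209e*. *Cd209a* was at 1245 CPM in IgG and 1011 in SPP1-nAb cells above the class median of MHC class II, the genes with which dendritic cells display peptides, and at 646 and 524 CPM below it. *Cd209d* was at 130 and 163 CPM above and 179 and 258 below, and *Cd209e* at 44.9 and 66.1 above and 78.0 and 205 below. The cells with lower MHC class II thus had less *Cd209a* and more *Cd209d* and *Cd209e* in both libraries. MHC class II genes themselves differed little between the libraries in this class, with ratios from 0.956 to 1.06.

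A split by *Ly6c2*, a gene of classical monocytes, chosen after its values were seen, gave a wider separation for *Cd209d* and *Cd209e*. For *Cd209a* the separation was narrower than by MHC class II. The 93 IgG and 95 SPP1-nAb cDC2-like cells with a *Ly6c2* UMI had 346 and 503 CPM of *Cd209d*, against 117 and 152 CPM in the rest. *Cd209e* was at 163 and 409 CPM with and 41.3 and 81.8 without *Ly6c2*. *Cd209a* was lower with it, at 713 and 670 CPM against 991 and 775. By *Ccr2* the genes were not opposed, with *Cd209a* at 957 and 784 CPM with and 868 and 659 without it, and *Cd209d* at 163 and 221 with and 102 and 183 without. Cells with at least 2 cycling markers, also split after seeing values, had less of all 3 genes, with *Cd209a* at 834 and 483 CPM against 960 and 810, *Cd209d* at 72.6 and 76.6 CPM against 166 and 239, and *Cd209e* at 17.4 and 59.4 CPM against 67.3 and 154.

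Members of a class were often found in the same cells. Of IgG resident macrophage-like cells with *Cd209g*, 84.5% also held *Cd209f*, against 10.3% of cells without *Cd209g*, and in SPP1-nAb it was 82.2%. Of cells with *Cd209d*, 61.7% also held *Cd209f*, against 10.4% of cells without it, and 59.0% did in SPP1-nAb. *Cd209a*, when present in IgG resident cells, was joined by *Cd209d* in 62.5% and by *Cd209f* in 55.8% of 240 cells. Cells with *Cd209g* were of similar depth, with a median of 3812 UMIs against 3671 in cells without it.

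In IgG cDC2-like cells 71.7% of cells with *Cd209e* also held *Cd209d*, against 20.0% of those without. *Cd209a* was held by 98.1% of cells with *Cd209e*, against 67.3% of those without. In SPP1-nAb 69.8% of cells with *Cd209e* held *Cd209d*. In the other direction 25.3% of IgG and 38.7% of SPP1-nAb cells with *Cd209d* held *Cd209e*. Of cells with *Cd209d*, 92.0% and 93.5% held *Cd209a*, against 62.8% and 55.3% of cells without *Cd209d*. *Cd209a* was thus found in most cells of the class either way. Cells with *Cd209d* were deeper, with medians of 4998.5 against 4373 UMIs in IgG and 5687 against 4888 in SPP1-nAb, and the part of depth in these shares was not tested. *Cd209f* or *Cd209g* was detected in 2 of 612 and 2 of 593 cDC2-like cells. None of *Cd209a*, *Cd209d*, *Cd209e*, *Cd209f* and *Cd209g* was detected in 27.8% and 32.5% of cDC2-like cells and in 70.3% and 83.8% of resident macrophage-like cells.

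**Figure D4:**
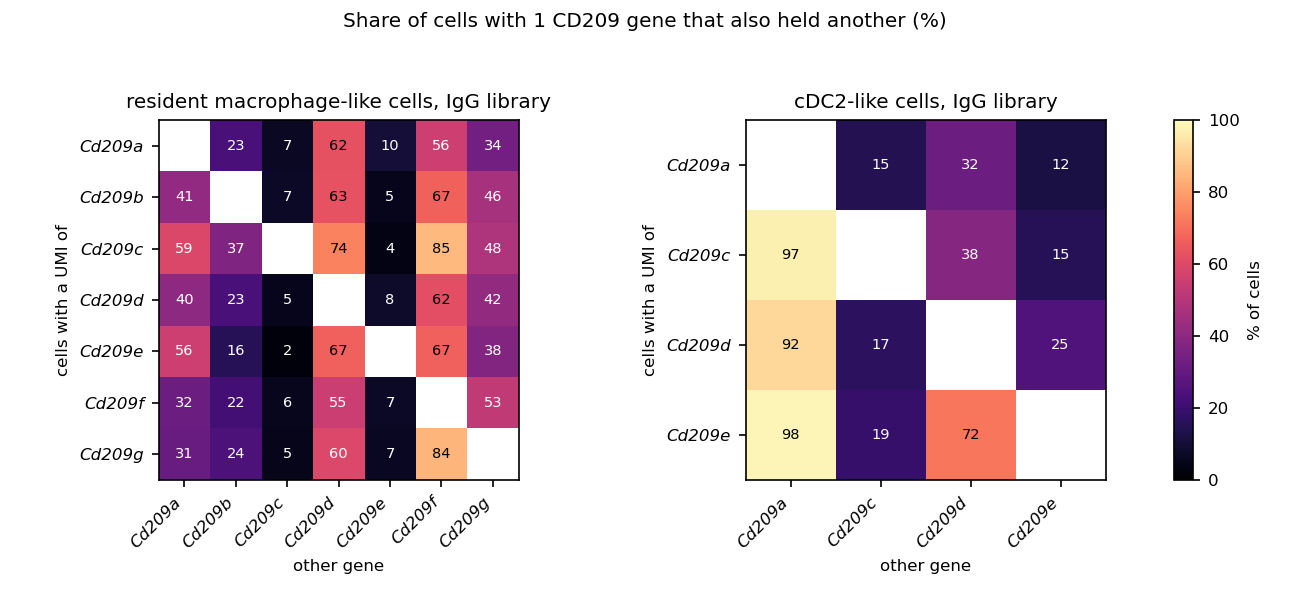
Share (%) of IgG cells with a UMI of 1 CD209 gene (rows) that also held another (columns), for resident macrophage-like cells (left) and cDC2-like cells (right). In resident cells 84.5% of cells with *Cd209g* held *Cd209f*, and in cDC2-like cells 98.1% of cells with *Cd209e* held *Cd209a* and 71.7% held *Cd209d*.

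Between the treatments, every member with enough UMIs was lower in SPP1-nAb than in IgG resident macrophage-like cells. *Cd209d* had a ratio of SPP1-nAb to IgG CPM of 0.288 (0.247 to 0.334), *Cd209a* of 0.339 (0.276 to 0.414), *Cd209g* of 0.431 (0.362 to 0.511) and *Cd209f* of 0.489 (0.446 to 0.536). *Cd209e*, on 65 and 24 UMIs, had a ratio of 0.435 (0.260 to 0.704), and *Cd209c*, on 27 and 8 UMIs, a ratio of 0.349 (0.137 to 0.789). All 5 members with at least 50 UMIs in the class, which leaves out *Cd209c*, were lower by more than 1.5-fold, beside 5.75% of 10086 genes lower by that fold and 5.01% higher. The same 5 were also lower by more than 2-fold, beside 1.34% of genes.

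The composition of the gate moved with this. Resident macrophage-like cells were 10.3% of IgG and 6.62% of SPP1-nAb cells, and 58.6% (1268) against 38.0% (560) of them held *Lyve1* and 11.0% against 4.68% held *Timd4*. The median marker score of the class was 4.47 in IgG and 3.51 in SPP1-nAb. All 9 resident macrophage markers had a ratio under 1, with a median of 0.848 and a range from 0.307 for *Timd4* to 0.990 for *Gas6*, and *Lyve1* itself was at 0.428. The 7 general macrophage genes lay on both sides of 1, from 0.778 for the efferocytosis receptor *Mertk* and 0.941 for *Csf1r* to 1.05 for *C1qb* and 1.35 for the Fc receptor *Fcgr1*, with *Adgre1* at 1.01. The part of this shift in the CD209 ratios was not tested.

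Within *Lyve1*-bearing cells the ratio of *Cd209f* was 0.709 (0.637 to 0.788), that of *Cd209g* 0.651, that of *Cd209a* 0.468 and that of *Cd209d* 0.398. Within cells without *Lyve1* the ratios were further from 1, at 0.380 for *Cd209f*, 0.291 for *Cd209g*, 0.267 for *Cd209a* and 0.253 for *Cd209d*. Among the 237 and 69 cells with *Timd4*, *Cd209f* had a ratio of 1.23 (0.972 to 1.54) and *Cd209g* of 0.886 (0.562 to 1.36), intervals that include 1. *Cd209d* was still lower there, at 0.581 (0.386 to 0.849), and *Cd209a* at 0.272. The lower level of *Cd209f* was thus present in *Lyve1*-bearing cells at a smaller size and was not found in *Timd4*-bearing cells, whereas *Cd209d* was lower in each of these splits.

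In cDC2-like cells the members did not move together. *Cd209e* was higher in SPP1-nAb with a ratio of 2.26 (1.89 to 2.70), and *Cd209d* was higher with 1.37 (1.22 to 1.55). *Cd209a* was lower with 0.800 (0.757 to 0.846) and *Cd209c* lower with 0.605 (0.417 to 0.870). *Cd209f* and *Cd209g* had under 50 UMIs here. Past 1.5-fold, 1 of the other 4 members was higher (*Cd209e*) and 1 lower (*Cd209c*), beside 4.73% and 4.93% of 7568 genes. *Cd209d* and *Cd209e* therefore had ratios on opposite sides of 1 in the 2 classes, a difference between classes that could not be tested with 1 library each. For *Cd209e* the SPP1-nAb level in resident cells was no more than near that of tenocyte-like and Schwann-like cells.

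The cDC2-like gate was more even between the libraries, at 2.91% and 2.66% of cells. Its 11 markers had a median ratio of 0.967, with 6 under 1, from 0.790 for *Kmo* to 2.26 for *Adam23*. Cells with *Ly6c2* were 15.2% and 16.0% of the class and those with *Ccr2* 83.3% and 74.4%. The *Cd209e* ratio was 2.50 in cells with *Ly6c2* and 1.98 in those without, and 1.47 above and 2.63 below the class median of MHC class II. *Cd209d* gave 1.45 and 1.29 by *Ly6c2* and 1.25 and 1.44 by MHC class II. In cells without a *Timd4* UMI its ratio was 1.19 (1.05 to 1.35). Both genes were thus higher in each split, and since 10 cells held about as much *Cd209e* as all others, its interval understates the spread between cells.

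**Figure D5:**
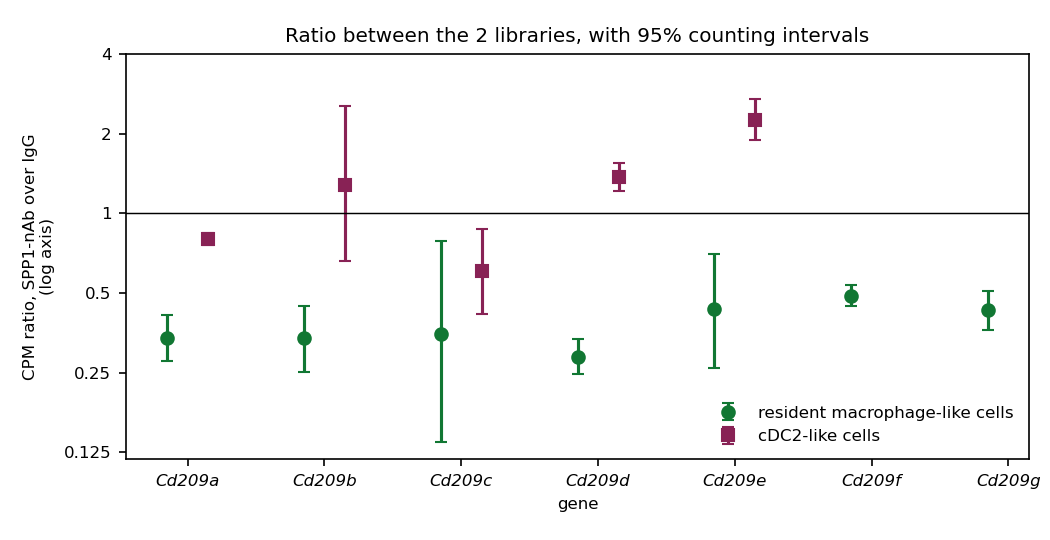
Ratio of CPM in SPP1-nAb over IgG (log axis) for each CD209 gene in resident macrophage-like cells (circles) and cDC2-like cells (squares), with 95% counting intervals and a line at 1. All 7 resident values lie below 1, and in cDC2-like cells *Cd209d* (1.37) and *Cd209e* (2.26) lie above it and *Cd209a* (0.800) and *Cd209c* (0.605) below.

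Over all kept cells the ratio joined level and class size, and was 0.312 for *Cd209f*, 0.284 for *Cd209g*, 0.597 for *Cd209d*, 0.678 for *Cd209a*, 0.498 for *Cd209c* and 1.64 for *Cd209e*. *Cd209e* was thus the only member with a higher CPM in the whole SPP1-nAb library. Outside the cDC2-like gate *Cd209e* went both ways. Its ratio was 2.25 (1.06 to 5.49) in *Ear2* macrophage-like cells, on 8 and 52 UMIs, and 4.26 (1.72 to 12.6) in unnamed MHC class II-high cells, on 6 and 27 UMIs. It was 0.435 in resident macrophage-like cells and 0.152 (0.00342 to 1.13) in *Gpr34* macrophage-like cells, the last on 8 and 1 UMIs. The SPP1-nAb level in *Ear2* macrophage-like cells was 7.60 CPM, beside 4.75 CPM in tenocyte-like cells.

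The other C-type lectins were on both sides of 1 in resident macrophage-like cells. Of 42 listed lectin genes 41 were measured, and 21 had at least 50 UMIs in the class. Of these 3 were lower by more than 1.5-fold, *Colec12* (0.450), *Clec5a* (0.629) and *Clec4b1* (0.654), and 4 were higher, *Clec4e* (2.76), the Mincle receptor of mycobacterial glycolipids, *Thbd* (1.86), *Clec4d* (1.79) and *Olr1* (1.68). These 3 and 4 of 21 stand beside 5.75% of all genes lower and 5.01% higher by that fold. The lectins' median log2 ratio was −0.06 beside −0.02 for all genes. *Mrc1* (0.961) and *Clec10a* (1.03), a galactose-type lectin, differed little.

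In cDC2-like cells 3 of 21 lectins were lower by more than 1.5-fold, *Cd69* (0.457), *Clec4b1* (0.628) and *Klrb1b* (0.648). Higher by that fold were 4, *Clec4e* (1.97), *Clec4d* (1.88), *Ly75* (1.81), the endocytic receptor DEC-205, and *Clec4n* (1.80), the Dectin-2 receptor of fungal mannans. For all genes of this class 4.93% were lower and 4.73% higher. The lectins' median log2 ratio was −0.16 beside 0.00 for all genes. *Clec4e*, *Clec4d* and *Clec4b1* were on the same side in both classes. Other lectins were on opposite sides, as *Cd209d* and *Cd209e* were. Among them were *Mgl2*, at 0.767 in resident macrophage-like and 1.40 in cDC2-like cells, and *Mrc1*, at 0.961 and 1.15. Opposite sides were thus not particular to the CD209 members. The 2 values lay further apart for *Cd209d* (0.288 and 1.37) and *Cd209e* (0.435 and 2.26) than for *Mgl2* and *Mrc1*. The share of all genes on opposite sides was not worked out.

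Values are given for the 10 measured genes nearest the cluster, 5 on each side. Those ahead of *Cd209a* come first, some on few UMIs. The share of all genes with a higher CPM in cDC2-like than in resident macrophage-like cells was not worked out, so their direction is not read as a pattern. *Fcer2a*, the low-affinity IgE receptor, was at 2.07 and 1.88 CPM in cDC2-like cells on 6 UMIs in each library and had 0 UMIs in IgG and 0.144 CPM in SPP1-nAb resident cells. *Clec4g*, a lectin of the same neighborhood, was at 11.7 and 3.44 CPM there on 34 and 11 UMIs, and at 0.858 and 0.289 CPM in resident cells. *Trappc5*, a subunit of a vesicle tethering complex, was at 74.9 and 62.0 CPM in cDC2-like and 25.3 and 18.3 CPM in resident cells. The noncoding *Gm16553* was at 22.1 and 14.1 CPM in cDC2-like cells against 1.72 CPM and 0 UMIs, and *Gm45231* had 5 and 1 UMIs in cDC2-like and 3 and 0 in resident cells. Past *Cd209g*, *Evi5l* was at 8.21 and 6.78 CPM in resident and 5.18 and 5.63 CPM in cDC2-like cells, and the kinase gene *Map2k7* at 24.6 and 21.9 against 10.0 and 13.5 CPM. The other 3 had 2 or fewer UMIs in each class and library, *Prr36* with 0 in all, *Lrrc8e* with 0 in cDC2-like and 2 and 1 in resident cells, and *4932443L11Rik* with 2 and 2 against 2 and 1. The part of the neighborhood in the CD209 levels was not tested.

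The profiles across 48 class-by-library sums, taken as log2(CPM + 1) over 13667 genes with at least 200 UMIs, placed the members by class. The sums share libraries and their gates, and the correlations are descriptive. The gene most like *Cd209f* was *Cd209g* (Pearson r = 0.95), followed by *Slc7a13*, *Lyve1*, *Tnfrsf17* and *C6* (0.88 each), and those most like *Cd209g* after it were *Pla2g2d* (0.90), *C6* (0.89), *Slc7a13* (0.87) and *Tnfrsf17* (0.86). *Cd209d* was closest to *Cd209e* (0.87), followed by *Hrh1* (0.86), a histamine receptor, and *Cd209c* and *Cd209a* (0.84 each). *Cd209a* was closest to *Gm15987* (0.89), followed by *Cd209d* (0.84), *Cd209c* (0.83) and by *Mbtd1* and *Bcl11a* (0.80 each). *Cd209c* was closest to *Cd209d* (0.84) and, past the family, to *Stat5a* (0.72) and *Aldoc* (0.71), and *Cd209e* to *Cd209d* and, past the family, to *Trappc5* (0.73). *Cd209f* had an r of 0.24 with *Cd209a* and 0.50 with *Cd209d*, and *Cd209g* had 0.51 with *Cd209d*. By this measure *Cd209d* was nearer the dendritic members than the resident ones. The sums are the same counts by which the family was chosen, so the correlations restate the levels.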

How the data were processed

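The authors deposited, per library, a raw matrix of UMI counts per gene and barcode made with Cell Ranger (8.0.0 in the submitters' notes, 9.0.1 in the file headers, build GRCm39), and these counts were used with no normalization. Barcodes with more than 200 genes and under 10% mitochondrial UMIs were kept, and the 10% with the highest scores against simulated doublets were removed per library. Cells were gated to the class with the highest score over its marker list, with at least 2 markers detected and a score above 2. UMIs were summed per class and library and divided by the class total (CPM). Intervals were exact Poisson for levels, exact Clopper-Pearson for shares and exact binomial for ratios, all at 95%, and cover counting error only. A count of 0 was given a limit of 3 counts. With 1 library per treatment no test was run. Genes past 1.5-fold were counted among genes with at least 50 UMIs over both libraries.

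The named genes were the 6 members and *Cd209b*, the class markers, a list of C-type lectins, the neighboring genes, and the 5 genes most like each member. The members, lists and splits were chosen with earlier results of these data known, and the gate limits and the *Ly6c2* and cycling splits after seeing values. Alternatives covered filters, doublets, gates, Leiden clusters, thinning, background subtraction, UMIs per cell, shared barcodes and the calling limits. Analyses used Python 3.11.15, numpy 2.4.6, scipy 1.17.1, pandas 2.3.3, scikit-learn 1.9.0, leidenalg 0.10.2 and Biopython 1.88, and the doublet score and the ratio interval were tested on simulated data. *Clec7a* of the lectin list was not analysed here.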

Additional observations from a re-analysis of the deposited data

Results flagged for a closer look

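The log2 ratio of SPP1-nAb to IgG went in opposite directions in the 2 classes for 2 members. For *Cd209d* it was −1.80 in resident macrophage-like and 0.46 in cDC2-like cells, and for *Cd209e* it was −1.20 in resident macrophage-like and 1.18 in cDC2-like cells. The resident value of *Cd209e* rests on 65 and 24 UMIs. Its 3.46 CPM in SPP1-nAb was under the 4.75 CPM of tenocyte-like and near the 3.39 CPM of Schwann-like cells. With 1 library per treatment the difference between the classes was not tested.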

How the results depend on the processing

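No paired analysis was possible because each treatment had 1 library, and for the same reason no library could be left out. The share of a gene's UMIs in its leading class depended most on how the class was drawn. Over both libraries it was 53.5% for *Cd209a*, 51.4% for *Cd209c*, 37.6% for *Cd209d* and 64.9% for *Cd209e* in cDC2-like cells and 87.3% for both *Cd209f* and *Cd209g* in resident macrophage-like cells. With Leiden clusters named from the same markers these shares were 68.6%, 66.4%, 50.3%, 74.0%, 96.3% and 96.1%, and with every cell thinned to 2000 UMIs they were 38.9%, 35.4%, 24.0%, 53.6%, 79.9% and 79.1%, with shallower cells left out and the gates drawn again on the thinned counts. Requiring 1 more marker gave 43.4%, 41.9%, 33.6% and 61.2% for the 4 genes in cDC2-like cells. With no doublets removed *Cd209a* was at 51.3%, *Cd209d* at 35.8%, *Cd209f* at 83.6% and *Cd209g* at 84.0%, and with the nonmyeloid level subtracted *Cd209f* was at 88.6%.

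The log2 ratios in the leading class kept their direction under all 11 alternatives for *Cd209a*, *Cd209c*, *Cd209d* and *Cd209e*, under 12 of 13 for *Cd209f* and under 13 of 13 for *Cd209g*. The exception was *Cd209f* in cells with *Timd4* only, at 0.29 on 69 SPP1-nAb cells, where *Cd209g* was at −0.17. In cells with *Lyve1* only they were at −0.50 and −0.62. Both of these were chosen after seeing the data. As UMIs per cell, *Cd209a* was at −0.14, *Cd209d* at 0.64, *Cd209f* at −0.71 and *Cd209g* at −0.90. Thinning gave −0.86 for *Cd209f*, and Leiden clusters −0.14 for *Cd209a*. The causes were not tested. Past 2-fold, 0 lectins were higher and 1 lower in cDC2-like cells, and 1 was higher and 1 lower in resident macrophage-like cells, beside 77 and 56 of 7568 and 169 and 135 of 10086 genes. Depth limited *Cd209c* most, with 52 UMIs in SPP1-nAb cDC2-like cells.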

Other observations

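The unnamed gate on plasmacytoid dendritic cell markers, 167 IgG and 176 SPP1-nAb cells, held *Cd209d* at 185 and 215 CPM. This was above the 155 and 213 CPM of cDC2-like cells, by little in SPP1-nAb. Within it, cells with a UMI of *Siglech*, a receptor of plasmacytoid dendritic cells, had 242 and 316 CPM of *Cd209d* against 131 and 149 CPM in those without, while *Cd209e* was at 20.8 and 58.6 against 52.4 and 62.6 CPM. Resident macrophage-like cells with *Siglech* also had more *Cd209d* than those without, by 3.21-fold in IgG and 2.61-fold in SPP1-nAb. This was not particular to *Cd209d*. The folds there were 2.27 and 4.84 for *Cd209a*, 2.32 and 5.09 for *Cd209f*, and 2.62 and 3.65 for *Cd209g*. Within the unnamed gate cells with *Ly6c2* had 360 and 458 CPM of *Cd209d* against 112 and 101 CPM in those without. *Cd209f* had 20 UMIs in the IgG and 2 in the SPP1-nAb part of this gate, and *Cd209g* 14 and 1. *Lyve1* was detected in 8.98% and 2.27% of these cells.

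A small set of cDC2-like cells with a *Timd4* UMI, 26 in IgG and 28 in SPP1-nAb, differed between the libraries. *Cd209e* had 8 UMIs in the IgG and 100 in the SPP1-nAb cells (67.0 and 538 CPM), and *Cd209d* had 5 and 106 UMIs (41.9 and 570 CPM). In the cDC2-like cells without *Timd4*, *Cd209e* was at 61.2 and 114 CPM and *Cd209d* at 160 and 190 CPM. The ratio of SPP1-nAb to IgG in these cells was 1.86 (1.55 to 2.25) for *Cd209e* and 1.19 (1.05 to 1.35) for *Cd209d*. The number of mice behind these cells was not stated.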
